A study of Mus musculus with 43 samples.

Results

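Amino acid transporter genes of mouse embryonic stem cells were compared between control and MTF2 knockout cells. The genes were those of 7 solute carrier families, Slc1a, Slc3a, Slc6a, Slc7a, Slc36a, Slc38a and Slc43a, taken by symbol. They numbered 64 of 22462 genes in the authors' deposited table. One of them, Slc7a6os, is named for lying beside Slc7a6 on the opposite strand and is not itself a transporter, which leaves 63 transporter genes. The control cells were E14 (ES-E14TG2a), an embryonic stem cell line kept with LIF, fetal calf serum, added glutamine and added non-essential amino acids. The other cells were labelled as a knockout, in the same line, of MTF2, a Polycomb-like subunit of Polycomb repressive complex 2 (PRC2), which methylates lysine 27 of histone H3. How the knockout was made, and from how many clones, was not stated in the labels. RNA-seq of polyadenylated RNA covered 3 control and 3 knockout libraries, called biological replicates in the design. The ChIP-seq samples, which also covered cells with wild-type or K339A MTF2 put back, were not analysed here.

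These carriers bring amino acids and related solutes across the plasma membrane and, for a few members, across the lysosomal membrane. Some exchange one amino acid for another, some are driven by sodium or protons, and the light chains of Slc7a reach the cell surface bound to a heavy chain of Slc3a. Cultured stem cells depend on them for the supply of glutamine, leucine, arginine and threonine. When amino acids run short, the kinase GCN2 raises translation of the transcription factor ATF4, which is known to activate several transporter genes, aminoacyl-tRNA synthetases and amino acid synthesis enzymes.

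Expression was given as FPKM, fragments scaled to transcript length and library size, with 1 value per gene pooled over the 3 libraries of a group. The spread between libraries and their depth are therefore unknown. Ratios are log2((knockout FPKM + 0.5)/(control FPKM + 0.5)), which understate changes of low genes, and folds are of the FPKM values themselves. A gene was called where the Cuffdiff q in the authors' deposited table, adjusted over all 11362 tested genes, was at or under 0.05. Mtf2 stood at 74.3 FPKM in control against 44.7 FPKM in knockout cells, and the authors' deposited table gave a q of 0.0496, so its transcripts were lower and not absent. The 8 pluripotent cell markers summed to 5191 FPKM in control against 5095 FPKM in knockout cells. By value, 3 were higher and 5 lower in knockout cells, so the near-equal sums hide changes in both directions. Dppa5a, the highest, stood at 1481 and 1876 FPKM. Zfp42 stood at 725 and 492 FPKM and was not called (q = 0.0743 in the authors' deposited table). Of the 8, 1 was called higher, Tdgf1 (12.5%, against 6.9% of all tested genes), and 0 lower (against 6.03%). In these bulk libraries, fewer cells of a type and less RNA per cell cannot be told apart.

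Of the 64 genes, 27 were tested by the authors and 37 were not. Among those tested, 5 were called higher in knockout cells (18.5%, against 6.9% of all tested genes), 1 was called lower (3.70%, against 6.03%), and 21 were not called. The genes called higher were Slc38a1 and Slc1a5, which carry glutamine and other neutral amino acids, Slc7a1 and Slc7a7, which carry arginine and lysine, and Slc6a8, the creatine carrier. The gene called lower was Slc38a4, a neutral amino acid carrier known as imprinted in the mouse. Of the 21 genes without a call, 15 had a higher and 6 a lower value in knockout cells. Among all tested genes without a call, 4875 were higher and 5018 lower by value. The median log2 ratio of the tested members was 0.45 (interquartile range 0.01 to 0.65), against -0.0035 (-0.40 to 0.47) for all tested genes. Summed over the 63 transporter genes, expression was 957 FPKM in control against 1284 FPKM in knockout cells, whereas all genes of the table summed to 559237 and 504845 FPKM. The calls depended on the authors' p. With its test statistic read against a normal distribution, 0 members passed in either direction, against 0.845% of tested genes higher and 0.258% lower. By that reading, 3 members higher and 1 lower had an unadjusted p under 0.05, against 550 higher and 358 lower of all 11362 tested genes. At a q of 0.01 or less, 3 members were higher (against 3.86% of all tested genes) and 1 lower (against 2.96%). At a q of 0.05 or less and a change of at least 2-fold, 2 were higher (against 4.67%) and 1 lower (against 2.8%). The q was also recomputed among the 10452 tested genes with 1 FPKM or more in both groups. There, 5 members were higher (against 6.68% of these genes) and 1 lower (against 6.18%).

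**Figure D1:**
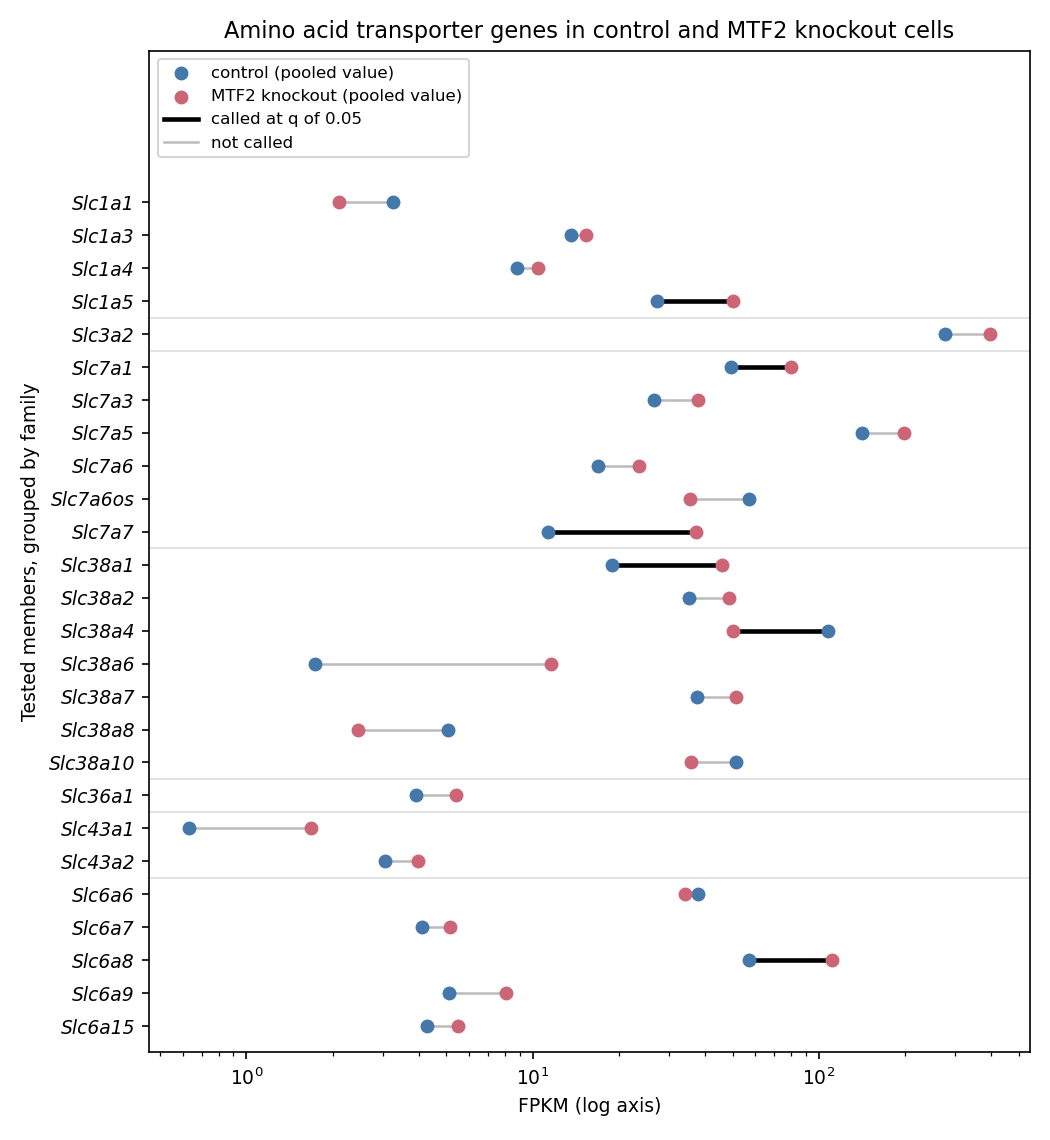
Pooled FPKM (log axis) of 26 of the 27 tested genes in control (blue) and MTF2 knockout cells (red), grouped by family, with 1 value per group and no error bars because the deposited values are pooled. Black lines join the values of the 6 called genes: Slc38a1, Slc1a5, Slc7a1, Slc7a7 and Slc6a8 lie further right in knockout cells and Slc38a4 further left.

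The largest ratio of a called gene was that of Slc7a7 (ENSMUSG00000000958, chr14:54360841-54417699), a light chain that exchanges cationic for neutral amino acids. Slc7a7 stood at 11.3 FPKM in control against 37.1 FPKM in knockout cells. It rose 3.27-fold (log2 ratio 1.67, q = 0.0249 in the authors' deposited table). Less the median of its chromosome 14 neighbours the ratio was 0.74, which was the lowest of the 5 genes called higher, and its locus entry is shared with Oxa1l. Slc38a1 (ENSMUSG00000023169, chr15:96571418-96642913), a sodium-driven glutamine carrier, stood at 19.0 and 45.9 FPKM. It rose 2.42-fold (log2 ratio 1.25, q = 0.0012 in the authors' deposited table, the smallest q there, shared by 472 genes). Slc6a8 (ENSMUSG00000019558, chrX:73673150-73682502) stood at 56.9 and 112 FPKM, a 1.96-fold rise with the same q of 0.0012 in the authors' deposited table. Slc1a5 (ENSMUSG00000001918, chr7:16781340-16798274), the glutamine exchanger ASCT2, stood at 27.3 and 50.3 FPKM. Its rise was 1.85-fold (log2 ratio 0.87, q = 0.00303 in the authors' deposited table). Slc7a1 (ENSMUSG00000041313, chr5:148327410-148399904), the main arginine and lysine carrier CAT1, stood at 49.4 and 79.9 FPKM. Its fold was the smallest of the 5, at 1.62-fold (log2 ratio 0.69, q = 0.0198 in the authors' deposited table). Slc38a4 (ENSMUSG00000022464, chr15:96994823-97055956) went the other way, from 108 to 50.0 FPKM. Positions are those of the whole gene entry in mm10. It fell to 46.4% of the control level (log2 ratio -1.10, q = 0.00379 in the authors' deposited table), and moved from rank 3 among the 64 genes in control cells to rank 7 in knockout cells.

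Promoter sequence was looked up for these genes because several transporter genes are known ATF4 targets and because MTF2 links PRC2 to CpG-rich DNA. RefSeq promoters (GRCm38.p6, 250 bases before to 50 after a start) were found for 46 of the 64 genes. Slc1a5, Slc38a1 and Slc6a8 were not among them. The motif searched was TGATGNAA on either strand, the core of the C/EBP-ATF response element that ATF4 binds with C/EBP partners. It was found in 4 of the 46 genes (8.70%), against 4.51% of all 27025 genes in the promoter table. Among tested genes it was found in 2 of 18 members (11.1%) and 2.47% of 8737 genes with a promoter, and among genes not tested in 2 of 28 members (7.14%) and 5.80% of 7557 genes. The 4 were Slc7a7, Slc7a11, Slc1a4 and Slc6a21. The next 3 sequences show it in genes at very different levels, with the motif in capitals. Slc7a7 (chr14:54417895-54418194, minus strand) was called higher, Slc1a4 (chr11:20332664-20332963, minus strand) was not called, and Slc7a11 (chr3:50443564-50443863, minus strand) stood near 0 in both groups.
Slc7a7: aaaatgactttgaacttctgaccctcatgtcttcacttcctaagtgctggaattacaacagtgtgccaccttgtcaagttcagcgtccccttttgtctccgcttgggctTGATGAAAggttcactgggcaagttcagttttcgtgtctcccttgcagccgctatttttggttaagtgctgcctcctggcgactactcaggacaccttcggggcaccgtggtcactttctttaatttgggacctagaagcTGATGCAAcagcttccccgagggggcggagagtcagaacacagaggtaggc
Slc1a4: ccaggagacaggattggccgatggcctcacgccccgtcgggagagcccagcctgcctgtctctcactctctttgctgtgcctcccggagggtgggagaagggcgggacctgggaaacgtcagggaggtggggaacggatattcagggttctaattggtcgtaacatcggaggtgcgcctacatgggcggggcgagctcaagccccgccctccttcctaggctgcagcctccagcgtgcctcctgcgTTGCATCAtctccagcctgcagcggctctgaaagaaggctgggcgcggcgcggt
Slc7a11: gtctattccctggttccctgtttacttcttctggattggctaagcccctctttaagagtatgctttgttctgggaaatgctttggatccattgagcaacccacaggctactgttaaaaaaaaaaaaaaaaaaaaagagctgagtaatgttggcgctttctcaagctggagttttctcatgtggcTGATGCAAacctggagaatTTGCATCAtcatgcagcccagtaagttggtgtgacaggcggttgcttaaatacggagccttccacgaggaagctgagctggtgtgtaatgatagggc

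In Slc7a7, TGATGAAA began 141 bases and TGATGCAA 1 base before the start used here, which is 1 of 5 starts listed for the gene. In Slc7a11, TGATGCAA and its reverse complement TTGCATCA began 66 and 47 bases before the start. In Slc1a4, TTGCATCA began 4 bases before it. Slc7a11 encodes xCT, the cystine and glutamate exchanger and a widely used ATF4 target, and was listed at 0.221 FPKM in control against 0.200 FPKM in knockout cells and was not tested. A motif match is a description of these windows and not a binding site, and genes without a match here may hold one elsewhere.

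CpG content was highest in Slc7a1 among the 3 called genes with a promoter. The next 2 sequences, with each CpG in capitals, show Slc7a1 (chr5:148399855-148400154, minus strand), called higher, and Slc38a4 (chr15:97055907-97056206, minus strand), called lower.
Slc7a1: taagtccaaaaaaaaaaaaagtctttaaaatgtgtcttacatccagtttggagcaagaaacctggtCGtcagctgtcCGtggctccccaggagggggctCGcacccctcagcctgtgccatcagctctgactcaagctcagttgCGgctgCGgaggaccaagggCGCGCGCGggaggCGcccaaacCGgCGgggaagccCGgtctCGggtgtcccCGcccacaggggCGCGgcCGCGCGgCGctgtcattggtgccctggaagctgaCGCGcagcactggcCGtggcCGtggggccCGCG
Slc38a4: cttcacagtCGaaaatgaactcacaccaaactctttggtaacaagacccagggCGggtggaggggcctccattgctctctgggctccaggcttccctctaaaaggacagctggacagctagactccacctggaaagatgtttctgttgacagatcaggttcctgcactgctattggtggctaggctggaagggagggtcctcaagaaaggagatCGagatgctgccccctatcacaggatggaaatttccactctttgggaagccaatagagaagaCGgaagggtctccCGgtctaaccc

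The Slc7a1 window held 27 CpG, an observed over expected ratio of 0.85 (its second start held 7), and the Slc38a4 window held 5, a ratio of 0.24. The other 2 Slc38a4 starts listed also held 5 CpG each. Slc7a7, called higher, had ratios from 0.27 to 0.46 over its 5 starts, so that the genes called higher were not alike in CpG content. Taking the highest window of each gene, the median ratio was 0.68 for the 18 tested members with a promoter and 0.54 for the 28 members that were not tested. The same medians were 0.80 for all tested genes and 0.26 for all genes not tested. Tested members were thus a little lower in CpG than tested genes at large, and untested members higher than untested genes at large, as medians with no test.

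In the Slc1a family, which holds the acidic amino acid carriers and the neutral exchangers, 4 of 7 genes were tested and 1 was called, Slc1a5. The other neutral exchanger, Slc1a4 (ASCT1, which carries serine and alanine), stood at 8.83 and 10.5 FPKM. Among the glutamate carriers, Slc1a3 stood at 13.6 and 15.4 FPKM and Slc1a1 at 3.24 and 2.11 FPKM, neither called. Slc1a2, Slc1a6 and Slc1a7 were not tested and lay at or under 0.542 FPKM in both groups. The share of Slc1a5 in the summed FPKM of the family was 51.0% in control but 63.7% in knockout cells. The acidic carriers summed to 17.4 and 18.2 FPKM, and the 2 neutral exchangers to 36.1 and 60.8 FPKM.

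The heavy chain Slc3a2, also known as CD98, was the highest gene of all in both groups, at 276 FPKM in control against 396 FPKM in knockout cells. Its ratio of 0.52 was not called (q = 0.0988 in the authors' deposited table). Slc3a1, the heavy chain of kidney and gut, was listed at 0 and 0.133 FPKM. The 10 light chain genes of Slc7a summed to 170 FPKM in control against 261 FPKM in knockout cells, so that Slc3a2 stood at 1.62 times their sum in control and 1.52 times in knockout cells. Both values carry no error, and no test of this ratio could be made.

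Most of the light chain expression came from Slc7a5, the leucine exchanger LAT1, at 142 FPKM in control against 199 FPKM in knockout cells. It made up 83.2% of the light chain sum in control and 76.3% in knockout cells. Slc7a5 was not called (p = 0.780 in the authors' deposited table), although its log2 ratio of 0.49 was close to the 0.47 of Slc7a6 (p = 0.0470 in the authors' deposited table). The locus entry of Slc7a5 in the table is shared by 74 genes, and that of Slc7a6 by no other gene. Slc7a6, a light chain for cationic and neutral amino acids like Slc7a7, stood at 16.9 and 23.6 FPKM. Slc7a7 was thus lower than Slc7a6 in control cells and higher in knockout cells by value. The remaining 7 light chains, Slc7a8, Slc7a9, Slc7a10, Slc7a11, Slc7a12, Slc7a13 and Slc7a15, were not tested and lay at or under 0.675 FPKM.

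Among the cationic carriers, Slc7a3, a relative of Slc7a1, stood at 26.6 and 37.9 FPKM and was not called (q = 0.169 in the authors' deposited table). Slc7a2, Slc7a4 and Slc7a14 were not tested and lay at or under 0.587 FPKM. The 5 genes of this group summed to 76.7 FPKM in control against 119 FPKM in knockout cells. All 5 tested transporters of Slc7a were higher in knockout cells by value, with log2 ratios from 0.47 to 1.67. Of them, 2 were called higher (40.0%, against 6.9% of all tested genes) and 0 lower (against 6.03%). Slc7a6os lay in the opposite direction, at 56.9 and 35.5 FPKM, and was not called (q = 0.0686 in the authors' deposited table). The locus entries of Slc7a6 and Slc7a6os lie 2010 bases apart.

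**Figure D2:**
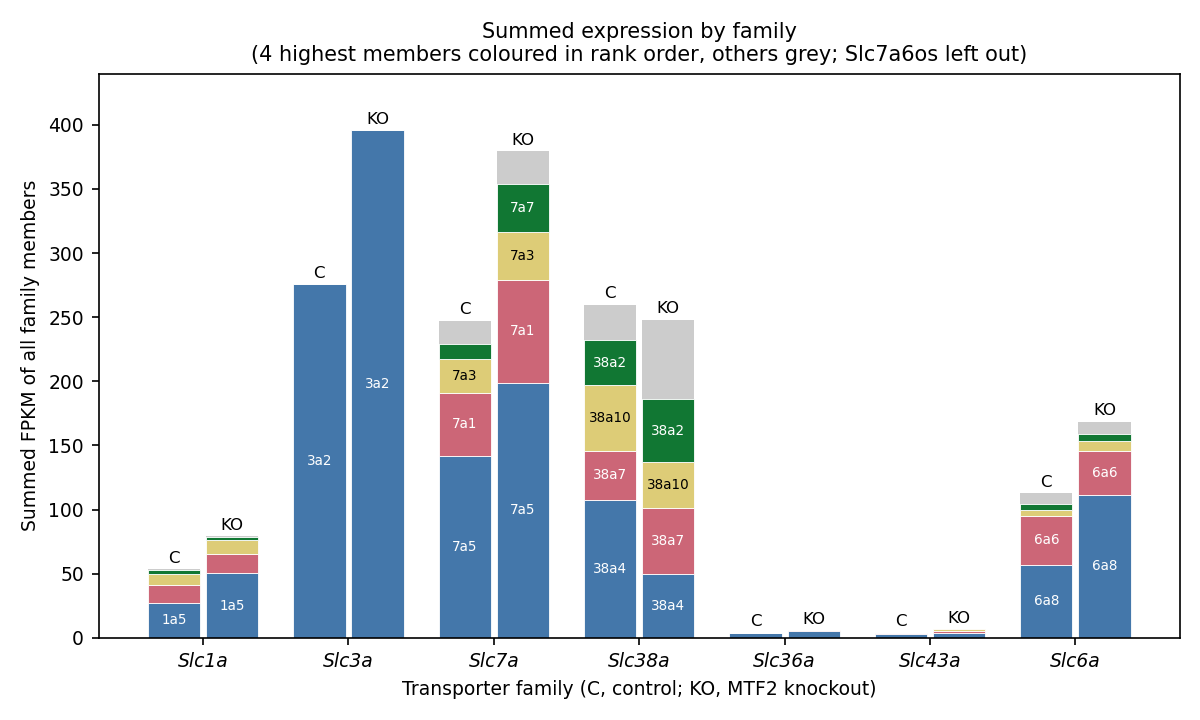
Summed pooled FPKM of each transporter family in control (C) and MTF2 knockout (KO) cells, stacked by member, with the 4 highest members coloured and the others grey, Slc7a6os left out, and no error bars because the values are pooled. Slc38a is the one family with a lower sum in knockout cells (260 and 248 FPKM), and its Slc38a4 block shrinks from 108 to 50.0 FPKM.

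In Slc38a, the sodium-coupled neutral amino acid carriers, 7 of 11 genes were tested. Of these, 1 was called higher (14.3%, against 6.9% of all tested genes) and 1 lower (14.3%, against 6.03%). The family sum was 260 FPKM in control against 248 FPKM in knockout cells, the one family whose sum was lower in knockout cells. Without Slc38a4 the sum was 152 and 198 FPKM. Slc38a4 made up 41.5% of the family in control and 20.2% in knockout cells. Slc38a1, Slc38a2 and Slc38a4 form system A, the carriers that take up small neutral amino acids. Slc38a2, the member known for induction by amino acid shortage, stood at 35.2 and 48.5 FPKM and was not called (q = 0.139 in the authors' deposited table). Together they summed to 162 and 144 FPKM, and in knockout cells the 3 genes lay between 45.9 and 50.0 FPKM.

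These 3 genes are neighbours on chromosome 15 (chr15:96571418-97055956, mm10). Slc38a1 and Slc38a2 lie 44.5 kb apart, Slc38a2 and Slc38a4 295 kb apart, and Gm8888, which was not tested, was the only other gene of the table between them. Slc38a1 at one end was called higher, with a log2 ratio of 1.25, and Slc38a4 at the other was called lower, with -1.10. The median log2 ratio of the 50 expressed genes nearest to each of the 3 was -0.05. These sets of 50 reach well beyond the stretch and include the other Slc38a genes. They thus describe the wider neighbourhood, not the stretch itself.

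**Figure D3:**
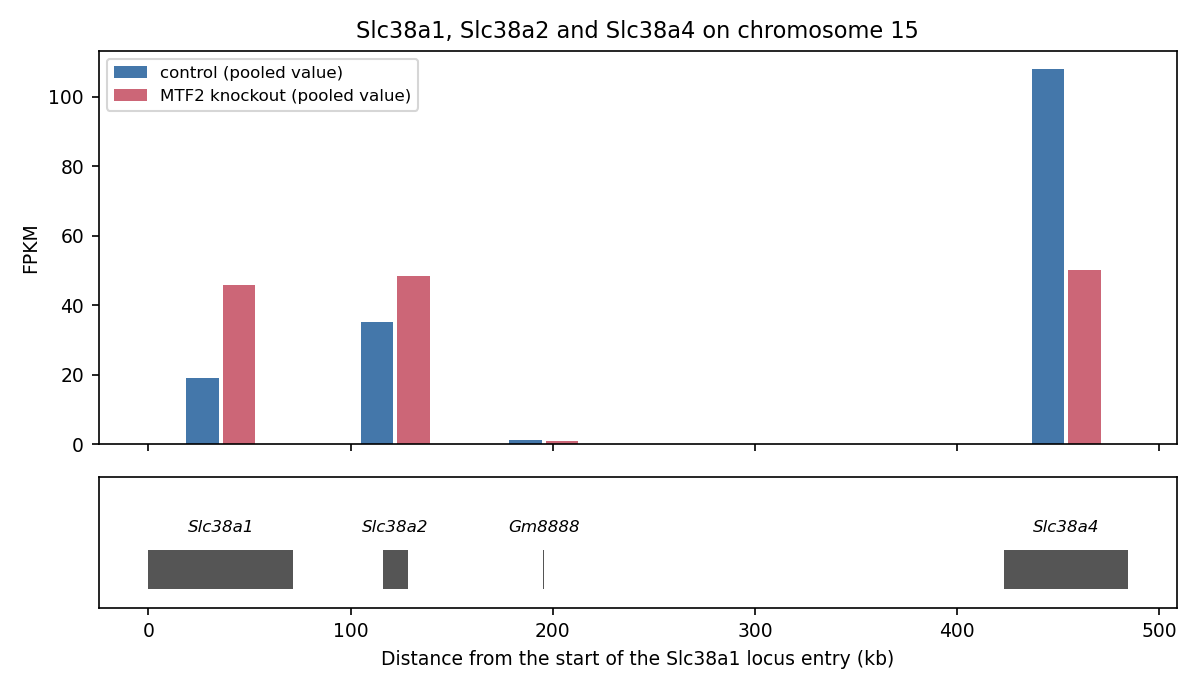
Pooled FPKM of Slc38a1, Slc38a2, Gm8888 and Slc38a4 in control (blue) and MTF2 knockout cells (red), drawn at their distance in kb from the start of the Slc38a1 entry, with the extent of each locus entry as a grey box in the lower panel. Slc38a1 rose from 19.0 to 45.9 FPKM and Slc38a4 fell from 108 to 50.0 FPKM, while Slc38a2 was not called.

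The other tested Slc38a genes were not called. Slc38a6 had the largest ratio of all 27 tested members, at 1.74 and 11.6 FPKM (6.66-fold, log2 ratio 2.43), but its q was 0.0581 in the authors' deposited table. Slc38a7, a glutamine and asparagine carrier of the lysosome, stood at 37.6 and 51.4 FPKM. Slc38a10 stood at 51.4 and 35.9 FPKM (q = 0.0914 in the authors' deposited table), and Slc38a8, known for its role in the eye, at 5.08 and 2.46 FPKM. Slc38a9, the arginine sensor of the lysosome, was not tested, at 0.610 and 0.882 FPKM. Slc38a3, a glutamine carrier of liver and brain, was not tested either, although it reached 1.34 FPKM in knockout cells against 0.549 FPKM in control cells. Slc38a5 was listed at 0.805 FPKM in control cells and at 0 in knockout cells, and Slc38a11 was listed at 0 in both.

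The proton-coupled Slc36a carriers and the Slc43a carriers of large neutral amino acids were low. Slc36a1, which works at the lysosome, stood at 3.93 and 5.41 FPKM and Slc43a2 (LAT4) at 3.04 and 3.99 FPKM. Slc43a1 (LAT3) stood at 0.632 and 1.68 FPKM, reaching 1 FPKM in knockout cells alone. None of these 3 was called, against 6.9% of all tested genes higher and 6.03% lower. The lowest q among them was 0.468 in the authors' deposited table. Slc36a2, Slc36a3, Slc36a4 and Slc43a3 were not tested and lay at or under 0.889 FPKM.

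Slc6a, the sodium- and chloride-coupled family best known for neurotransmitter carriers, was the largest family, with 21 genes, of which 6 were tested. Of these, 1 was called higher, Slc6a8 (16.7%, against 6.9% of all tested genes), and 0 lower (against 6.03%). Slc6a8 and the taurine carrier Slc6a6 made up most of the expression of the family. Slc6a6 stood at 37.9 and 34.0 FPKM and was not called (q = 0.681 in the authors' deposited table), and Slc6a8 made up 50.4% of the family sum in control and 66.3% in knockout cells. The glycine carrier Slc6a9 stood at 5.09 and 8.08 FPKM, the proline carrier Slc6a7 at 4.11 and 5.15 FPKM, and Slc6a15, a carrier of branched-chain amino acids and proline, at 4.28 and 5.48 FPKM. The monoamine carriers Slc6a2, Slc6a3 and Slc6a4 summed to 0.387 FPKM in knockout cells and were not tested. Of the other untested members, Slc6a16 was the highest in control cells, at 1.14 and 0.694 FPKM, and 4 Slc6a genes were listed at 0 in both groups.

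Over all families, the 37 untested genes summed to 6.71 FPKM in control against 9.63 FPKM in knockout cells, 9 of them were listed at 0 in both groups, and 11 were listed at 0 in 1 group. No tested gene of the whole table lay under 1 FPKM in both groups, so a member under 1 FPKM in control cells could be tested only where it was higher in knockout cells. Slc43a1 was the only tested member of that kind, and was not called.

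Tested genes of chromosome 14 had a median log2 ratio of 0.70, with 116 of 384 called higher and 10 lower, so each member was set beside the 50 nearest expressed genes of its chromosome. Slc7a7 lies on that chromosome, and its neighbours had a median log2 ratio of 0.92, with 20 of 50 called higher and 0 lower. Taking that median off left 0.74 of its 1.67. Slc7a7 also shares its locus entry with Oxa1l, which was called higher at 31.9 and 59.3 FPKM. The neighbours of Slc1a5 (-0.22), Slc7a1 (-0.17), Slc38a1 (-0.05), Slc38a4 (-0.05) and Slc6a8 (0.11) had medians much smaller than, or opposite to, the ratio of the gene itself. Less those medians, the log2 ratios were 1.09 for Slc1a5, 0.86 for Slc7a1, -1.05 for Slc38a4 and 0.86 for Slc6a8. Without genes of chromosomes 8 and 14, 4 members were called higher and 1 lower.

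**Figure D4:**
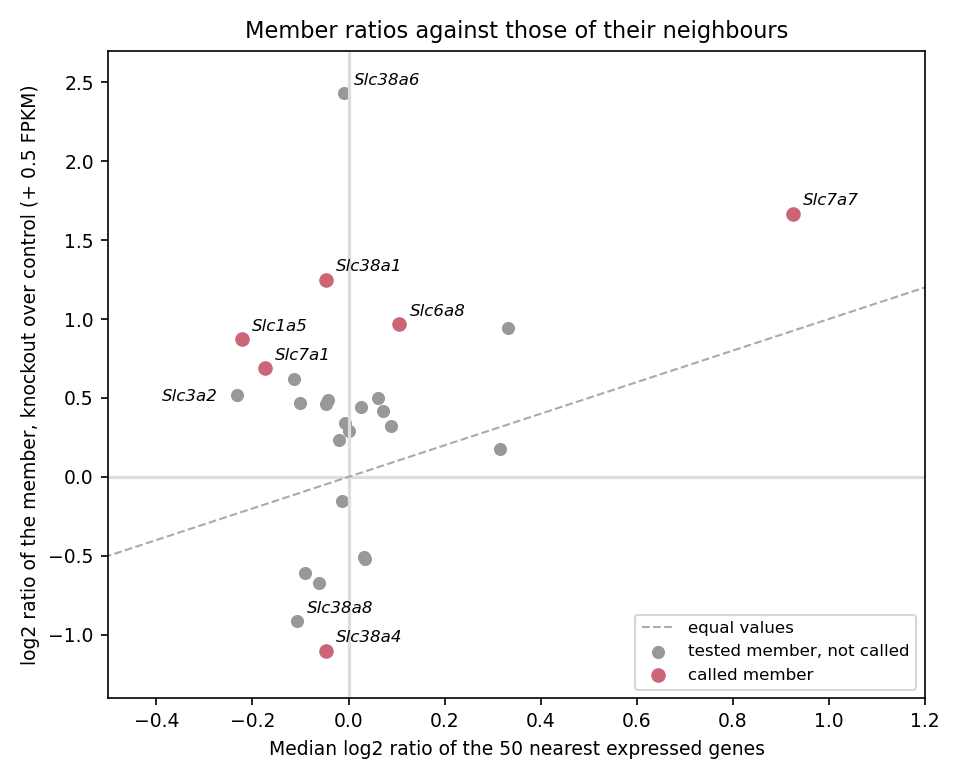
Log2 ratio of each of the 27 tested members (vertical axis) against the median log2 ratio of the 50 nearest expressed genes on its chromosome (horizontal axis), with called members in red and the dashed line marking equal values. Slc7a7 is the only called member far to the right, at a neighbour median of 0.92, and the others lie between -0.22 and 0.11.

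Other genes of amino acid supply were examined as background to the transporters. In the amino acid response and ATF4 pathway list, the 20 tested genes held 13 higher calls (65.0%, against 6.9% of all tested genes). Lower calls were 0 by Cuffdiff (against 6.03%) and 0 with the normal p (against 0.258%). The median log2 ratio was 0.94. In the lower direction 0 list genes had an unadjusted p under 0.05. Atf3, a stress-induced transcription factor, rose from 1.98 to 48.4 FPKM, and Chac1, a glutathione-degrading enzyme, from 31.7 to 156 FPKM. Part of this pattern was known from earlier results of these data. The count of higher calls was 8 for changes of at least 2-fold (4.67% of all tested genes) and 3 with the normal p (0.845%). Without chromosomes 8 and 14 it was 11. Eif4ebp1, an ATF4 target that restrains translation, was called at 202 and 403 FPKM. It lies on chromosome 8 among neighbours with a median log2 ratio of 1.00, equal to its own.

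Of the 20 cytosolic aminoacyl-tRNA synthetases, the enzymes that load amino acids onto tRNA, 8 were called higher (40.0%, against 6.9% of all tested genes) and 1 lower (against 6.03%), with a median log2 ratio of 0.51. Hars, for histidine, stood at 29.9 and 55.1 FPKM and Nars, for asparagine, at 262 and 453 FPKM, while Dars, for aspartate, fell from 356 to 202 FPKM. These rises were small: 0 reached 2-fold (4.67% of all tested genes did) and 2 passed a q of 0.01 (3.86% did). With the normal p, 0 passed (0.845% did). At an unadjusted normal p under 0.05 there was 1, against 550 of 11362 tested genes higher. The motif TGATGNAA was found in 5 of the 12 synthetase genes with a promoter (41.7%) and in 6 of 19 genes of the ATF4 pathway list (31.6%), against 2 of 18 tested transporters (11.1%) and 2.47% of tested genes. Of the 5 synthetases with the motif, Gars was called higher, and Aars, Iars, Tars and Yars were not called. In the ATF4 pathway list, 5 of the 6 genes with the motif were called higher and Fgf21 was not tested. Of all 20 tested genes of that list, with or without the motif, 13 were called higher (65.0%). Whether motif and call go together was not tested. The list was picked as genes of the ATF4 pathway, so its motif share is no independent result. Among the enzymes of serine, glycine, proline and asparagine synthesis, Asns, Got1 and Pycr1 also held the motif, and none was called. Asns stood at 136 FPKM in control against 183 FPKM in knockout cells.

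Of the enzymes of serine, glycine, proline and asparagine synthesis, 25 were tested. Among them 3 were called higher (12.0%, against 6.9% of all tested genes) and 1 lower (against 6.03%), with a median log2 ratio of 0.14. Mthfd2, a mitochondrial folate enzyme, rose from 141 to 231 FPKM and Aldh18a1, of proline synthesis, from 35.7 to 58.5 FPKM, while Pycrl, also of proline synthesis, fell from 81.6 to 37.1 FPKM. In the list of threonine, branched-chain and methionine use, calls among the 16 tested genes were 3 higher (18.8%, against 6.9% of all tested genes) and 2 lower (12.5%, against 6.03%). Tdh, which breaks down threonine in mouse embryonic stem cells, rose from 73.1 to 253 FPKM and Gldc, of the glycine cleavage system, from 72.7 to 149 FPKM. Bckdk, which holds back branched-chain breakdown, fell from 91.2 to 45.2 FPKM and the branched-chain transaminase Bcat2 from 201 to 117 FPKM. Tdh lies on chromosome 14 among neighbours with a median log2 ratio of 1.36, against 1.78 for the gene itself.

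Of the amino acid transporters outside the 7 families, 13 were tested. They include the mitochondrial carriers Slc25a12, Slc25a13 and Slc25a22 and the lysosomal cystine carrier Ctns. By Cuffdiff 0 were called, against 6.9% of all tested genes higher and 6.03% lower, and so few genes cannot set 0 apart from those shares. In each direction 1 had an unadjusted p under 0.05, against 1445 higher and 1477 lower of the 11362 tested genes. With the normal p, 0 had an unadjusted p under 0.05. The median log2 ratio of the 13 was 0.0064, near that of all tested genes, with an interquartile range of -0.29 to 0.88. Single ratios ran from -1.86 for Slc17a7 to 1.38 for Slc25a18, neither called. In the list of apical partners and amino acid sensors, calls among the 16 tested genes were 2 higher (12.5%, against 6.9% of all tested genes) and 0 lower (against 6.03%), with 3 and 2 at an unadjusted Cuffdiff p under 0.05. The calls were Sesn2, a leucine sensor that is also an ATF4 target and in the ATF4 pathway list, at 58.6 and 92.6 FPKM, and Flcn, a regulator of lysosomal Rag GTPases, at 21.8 and 38.3 FPKM.

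**Figure D5:**
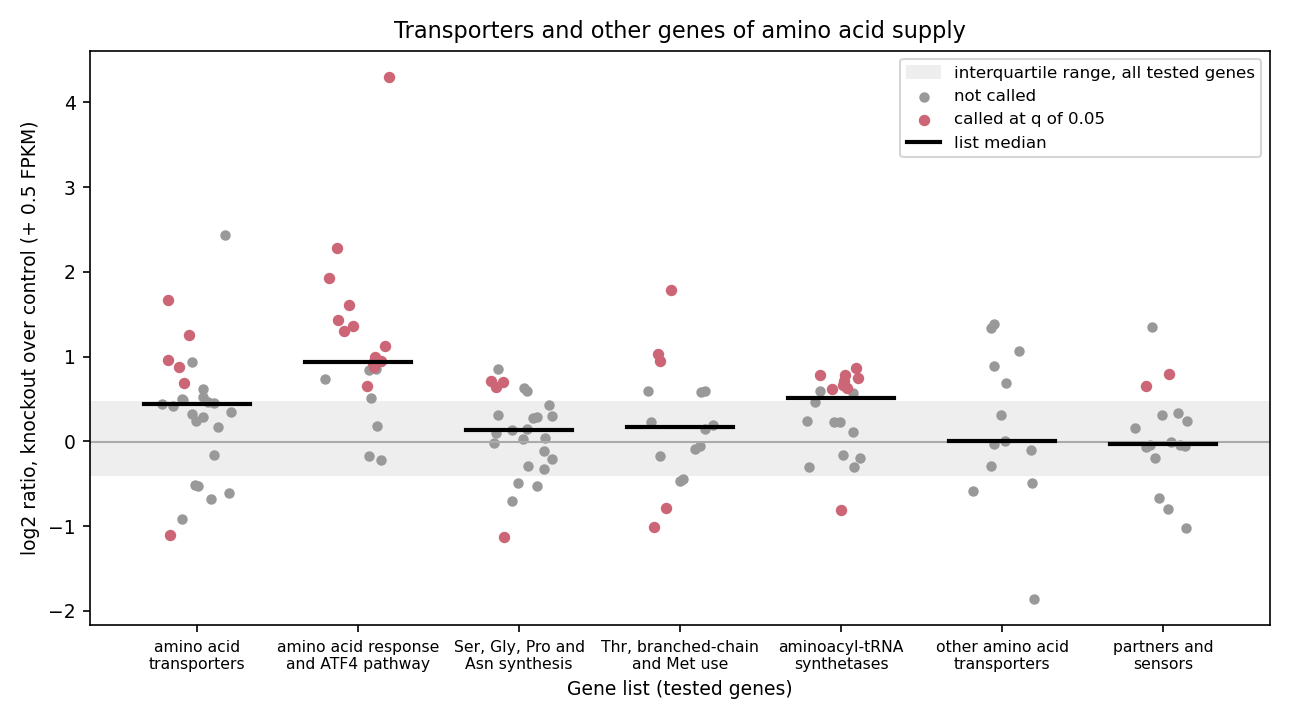
Log2 ratios (knockout over control, 0.5 FPKM added) of tested genes in the transporter families and in 6 lists of amino acid supply, with called genes in red, others in grey, list medians as black bars and the interquartile range of all tested genes as a grey band. The ATF4 pathway list has the highest median, 0.94, followed by the synthetases at 0.51 and the transporters at 0.45.

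Markers of primitive endoderm, another cell type of the early embryo, moved with the comparison. All 10 primitive endoderm markers were higher in knockout cells by value and 8 were called higher (80.0%, against 6.9% of all tested genes). Their summed level was 50.5 FPKM in control against 632 FPKM in knockout cells. None of them was at 0 in either group. Gata4 (log2 ratio 4.76) and Sox7 (3.76), both called, lie on chromosome 14 among neighbours with median log2 ratios of 1.36 and 1.38. Col4a1 (4.73), also called, lies on chromosome 8 among neighbours with a median of 0.86. The 8 trophectoderm markers summed to 41.6 and 185 FPKM, with 1 marker at 0 in knockout cells. Among the 5 trophectoderm markers tested, 2 were called higher (40.0%, against 6.9% of all tested genes) and 1 lower (against 6.03%). The calls were Krt18, which rose from 9.55 to 117 FPKM, Krt8, which rose from 6.11 to 52.9 FPKM, and Tfap2c, which fell from 16.9 to 7.41 FPKM. The keratins are found in many epithelial cells. Eomes stood at 6.07 and 3.90 FPKM and was not called, and Elf5, at 0.645 FPKM and listed at 0, was not tested. The 8 fibroblast markers summed to 7.52 and 15.9 FPKM, and 4 were at 0 in control and 3 in knockout cells. By Cuffdiff 0 of 2 tested were called (against 6.9% of all tested genes higher and 6.03% lower), and 1 had an unadjusted p under 0.05. The part of these cells in the transporter differences was not tested.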

How the data were processed

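Values came from 1 gene table. Of tools, the submitters' processing notes list TopHat2 2.1.0, Cuffdiff 2.2.1.3, Bowtie 1.0 and deepTools. Of builds, they list mm10 and mm9. They state no role for any of these. Per the file headers, the authors deposited 1 FPKM value per gene and group; neither scaling between libraries nor strand use was stated. The p-value and q-value deposited by the authors were used as calls; the deposited q equals a Benjamini-Hochberg adjustment over the 11362 tested genes to within 5.2e-07. The deposited log2 fold change was replaced by a ratio with a pseudocount of 0.5. The deposited test statistic, a score that sets the log ratio against its error, gave the normal p. Pooled values allow no SD, leave-one-out or test over libraries.

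Starts were moved from 0-based to 1-based. All 64 members lay on the same chromosome in RefSeq GRCm38.p6, the reference of mm10, and 78.1% had both ends within 2 kb. Expressed neighbours had 1 FPKM or more in either group. Protein sequences were not used here.

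Members and lists were chosen with earlier results of these data known. Tested members are named, except 1 that is not reported here, with untested members that reached 1 FPKM, Mtf2, and from each list up to 2 higher and 2 lower calls of largest ratio. Other genes, such as Slc7a11, Eif4ebp1 and Fgf21, were named after their values were seen, and the grouping of members by role was also made then. Python 3.11.15, pandas 2.3.3, NumPy 2.4.6, SciPy 1.17.1 and Matplotlib 3.10.9 were used. The scripts were tested on simulated data.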

Additional observations from a re-analysis of the deposited data

How the results depend on the processing

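Of 5 members called higher and 1 called lower, 3 and 1 passed a q of 0.01, and 2 and 1 changed at least 2-fold. When the statistic was read against a normal distribution, 0 and 0 passed, and 3 and 1 had an unadjusted p under 0.05. Of all 11362 tested genes, 550 higher and 358 lower had such an unadjusted p. Recomputed q over genes with FPKM of 1 or more in both groups, leaving out genes listed at 0, and leaving out chromosomes 8 and 14 kept the counts within 1.5 times. For the ATF4 pathway list, 13 higher calls became 8 at 2-fold or more (4.67% of all tested genes) and 3 with the normal p (0.845%). For the synthetases, 8 became 2 at a q of 0.01, 0 at 2-fold or more and 0 with the normal p, where 1 had an unadjusted p under 0.05. These list alternatives were chosen after seeing the data. The normal p uses the same statistic as the authors, and the cause of the gap was not tested. No family median or ratio of a called member changed sign under any alternative run. The median of Slc43a, on 2 genes, ranged from 0.51 to 0.83 with the pseudocount. That of Slc7a was 0.59 without chromosomes 8 and 14, which leaves only 2 tested genes, Slc7a1 and Slc7a3. Taking off the neighbour median moved 4 ratios of called members, Slc7a7 from 1.67 to 0.74, Slc1a5 to 1.09, Slc7a1 to 0.86 and Slc6a8 to 0.86. No paired analysis was possible because the table holds 1 pooled value per group. The unknown depth limits what can be said of genes near 0.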
